A study of Mus musculus with 8 samples.

Results

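The genes described here are 10 genes of fatty acid synthesis, storage, uptake and oxidation and of the nuclear receptor PPAR gamma: Me1, Acly, Acaca, Fasn, Scd2, Elovl1, Plin2, Cd36, Cpt1a and Pparg. They were taken by symbol from a table of 17492 rows, and all 10 were among the 11700 genes with enough reads to test. They were measured by RNA sequencing in bone marrow-derived macrophages of C57BL/6 mice, cells grown in culture from marrow precursors. Of 8 libraries, 4 came from cells in medium without serine and glycine (here serine/glycine-free), and the untreated 4 had normal medium (here control). The labels name no genotype, stimulus, duration or age, and they do not say whether libraries came from separate cultures or animals, so the p-values measure only the spread between these libraries, which may be technical.

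Fatty acid synthesis starts in the cytosol, where citrate is split to acetyl-CoA, which is carboxylated to malonyl-CoA and built into palmitate with reducing power from NADPH. Palmitate is then elongated, desaturated, esterified and stored in lipid droplets, or it is carried into mitochondria and oxidised. PPAR gamma is a nuclear receptor for fatty acids and their derivatives that pairs with the retinoid X receptor. In macrophages it is known for lipid uptake and alternative activation, and Cd36, Plin2 and Fabp4 are textbook targets.

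Each library held 17565291 to 18201599 estimated counts in all. The label was checked against markers. The 9 macrophage markers of a fixed list summed to 19039 to 19317 CPM in serine/glycine-free and 19028 to 19482 CPM in control libraries. CPM are counts relative to the TMM-scaled library size. Lyz2 (means of 9994 and 9107 CPM, in that order) and Adgre1 (4849 and 5763 CPM) were the largest parts of the sum. Single markers did differ between the groups. All 9 were called at an adjusted p of 0.05 (edgeR), 5 higher and 4 lower without serine and glycine, beside 33.2% of all tested genes. Among them, Csf1r rose (log2 change 0.41) and Itgam fell (-0.61). Summed markers of other cells were far lower: at most 2.12 CPM in serine/glycine-free and 2.24 CPM in control libraries for dendritic cells, and at most 0.780 and 0.224 CPM for adipocytes. Csf3r (122 CPM in serine/glycine-free and 138 CPM in control libraries) made up most of the neutrophil list, and Cd79b (34.996 and 46.3 CPM) most of the B-cell list. Both fell, and S100a8 of the neutrophil list rose (1.87 and 0.755 CPM); their part in the results below was not tested. In bulk RNA, fewer cells of a type and less RNA per cell cannot be told apart.

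Without serine and glycine, transcripts for a lipid droplet coat (Plin2), a fatty acid receptor (Cd36), an NADPH-producing enzyme (Me1) and an elongase (Elovl1) rose. The central enzymes of palmitate synthesis did not rise with them: Acly and Acaca did not pass the test, and Fasn fell slightly. Pparg, Cpt1a and Scd2 did not pass. Thus 4 of the 10 genes rose and 1 fell at an adjusted p of 0.05 (edgeR quasi-likelihood), against 15.9% of all tested genes higher and 17.3% lower, 33.2% in all. The groups did not overlap for 4 of the 10, against 30.6% of all tested genes (14.5% higher and 16.2% lower). The median log2 change was 0.036 over the 10 genes and 0.0074 over all tested genes.

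**Figure D1:**
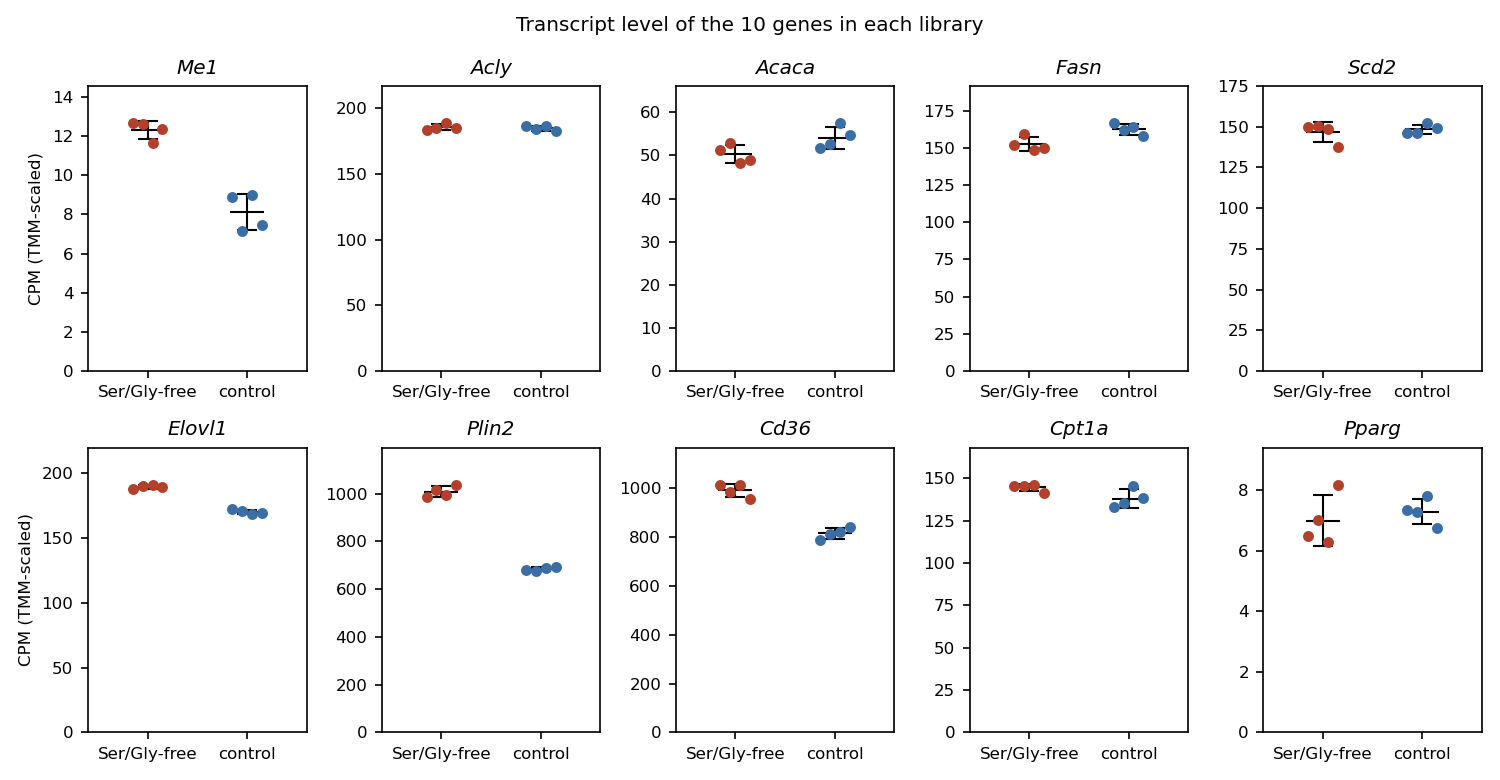
TMM-scaled CPM (vertical axes, from 0) of the 10 genes in 4 serine/glycine-free and 4 control libraries; each point is 1 library, and the bar and whiskers are the mean and SD. The groups are apart for Me1, Elovl1, Plin2 and Cd36 and overlap for the other 6 genes.

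Me1 encodes the cytosolic malic enzyme, which makes pyruvate from malate and yields NADPH. It had 12.7, 12.6, 11.6 and 12.3 CPM in the serine/glycine-free libraries, against 8.89, 7.17, 8.97 and 7.48 CPM in the control libraries. Every serine/glycine-free library was above every control library. The log2 change was 0.60 (SE 0.083, adjusted p = 1.3e-07), a 1.51-fold level with a 95% interval of 1.35 to 1.70. With 209 to 231 counts in a serine/glycine-free and 130 to 160 in a control library, it is among the less deeply sampled of the 10 genes. The coefficient of variation (SD over mean) was 3.82% without serine and glycine and 11.5% in control. Me1 (Entrez 17436) lies on chromosome 9 at 86581363 to 86695914 of GRCm38.p6. A330041J22Rik, an antisense gene of the annotation, shares 494 bases with it and has no value of its own here, so its reads cannot be told apart from those of Me1 if the counting ignored strand. Gm38230, on the same strand as Me1, shares 1159 bases and has no value either, so strand would not set it apart.

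With any 1 of the 8 libraries left out, and under the other settings tried, the log2 change of Me1 stayed between 0.48 and 0.65 and passed the test. Of the 7110 tested genes compared that had at least 20 CPM, those with the pattern over the 8 libraries nearest to Me1 were Adssl1, Gde1 and Hspa4l. Their Euclidean distances in mean-centred log2 CPM were 0.23, 0.25 and 0.26, and their own log2 changes were 0.48, 0.53 and 0.68. Changes near that of Me1 follow from choosing genes by their pattern in these same libraries.

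Of 8 tested NADPH-producing enzymes, 4 rose, Me1 included, and the other 4 did not pass, and the median log2 change was 0.038. The share called was 50%, beside 33.2% of all tested genes. The groups did not overlap for 4 of the 8, the same 4 that rose, beside 30.6% of all tested genes. Idh1, the cytosolic isocitrate dehydrogenase, had 150.2 to 153 CPM in serine/glycine-free and 113 to 119 CPM in control libraries (log2 change 0.37, adjusted p = 4.3e-14). Pgd, of the oxidative pentose phosphate pathway, averaged 419.9 ± 11.8 CPM in serine/glycine-free and 367 ± 10.1 CPM in control libraries (SD, n = 4; log2 change 0.20, adjusted p = 5.8e-08 by edgeR). G6pdx, the first enzyme of that pathway, averaged 256 ± 3.21 and 240.1 ± 3.32 CPM in the same order (log2 change 0.093, adjusted p = 0.0044 by edgeR). On the deposited TPM the call of G6pdx was lost (0.062, adjusted p = 0.0767 with a pseudocount of 1), where its adjusted p over all settings lay between 0.0021 and 0.0809. The mitochondrial Idh2 stood at -0.062 and the folate enzyme Mthfd1 at -0.036, neither past the test (both named after their values were seen).

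RefSeq gives 2 upstream windows for Me1, at different start sites. The one at the 5' end of the gene is shown because its start site carries the letters of an antioxidant response element core, the sequence read by NRF2. The letters searched were TGACNNNGC, on both strands of windows of 300 bases, and they occurred in 12.4% of the 32851 windows that RefSeq gives for all genes. The window printed runs from 250 bases before to 10 bases after the start, on the minus strand of GRCm38.p6, chr9:86695905-86696164, with the match in capitals.
Me1: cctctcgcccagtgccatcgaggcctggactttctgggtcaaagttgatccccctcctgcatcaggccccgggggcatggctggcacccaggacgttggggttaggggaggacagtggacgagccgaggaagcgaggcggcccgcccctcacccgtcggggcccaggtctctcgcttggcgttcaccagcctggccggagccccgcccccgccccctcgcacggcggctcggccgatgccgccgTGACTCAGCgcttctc
The match spans the start site itself, and the other window of Me1 held none of the motifs searched. Among 13 windows of 9 of the 10 genes (none was given for Scd2), 1 of the 3 windows of Pparg also held the letters, read on the other strand, between 233 and 225 bases before the start. A match is a run of letters, and binding was not measured.

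Acly encodes ATP citrate lyase, which supplies the acetyl-CoA. It had 184, 185, 189 and 185 CPM in the serine/glycine-free libraries, against 186, 184, 187 and 183 CPM in the control libraries. The groups overlapped almost fully, with a log2 change of 0.0053 (SE 0.027, adjusted p = 0.911), with a 95% interval of the change between -3.38% and 4.26%. The coefficient of variation was 1.16% in serine/glycine-free and 1.07% in control libraries.

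Acaca encodes acetyl-CoA carboxylase, which makes malonyl-CoA. It had 51.2, 52.9, 48.3 and 49.0 CPM without serine and glycine, against 51.7, 52.7, 57.5 and 54.6 CPM in control. The ranges overlapped, though most serine/glycine-free libraries were below most control libraries. The log2 change was -0.10 (SE 0.042, adjusted p = 0.0550), which did not pass. Leaving out serine/glycine-free replicate 2 gave -0.13 with an adjusted p of 0.0256, leaving out control replicate 1 gave -0.13 with 0.0322, and testing all genes with a count gave -0.11 with 0.0379, all past the threshold. Over all settings its adjusted p lay between 0.0256 and 0.305 (17 of 20 settings did not pass). The 95% interval of the change ran from -12.3% to -1.25%. The annotation places the antisense gene Gm11437 within Acaca, over 19126 bases, with no value of its own here. Gm37391, on the same strand as Acaca, shares 2318 bases with it and has no value either.

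Fasn encodes fatty acid synthase, the enzyme that builds palmitate. It had 152, 159.6, 149 and 149.6 CPM in the serine/glycine-free libraries, against 167, 162, 164 and 158 CPM in the control libraries. Only serine/glycine-free replicate 2 reached into the control range, above control replicate 4. Fasn fell, with a log2 change of -0.092 (SE 0.030, adjusted p = 0.0137), or -6.18% with a 95% interval from -9.996% to -2.20%. Fasn no longer passed once serine/glycine-free replicate 3 was dropped (-0.080, adjusted p = 0.0639) or control replicate 1 was dropped (-0.081, adjusted p = 0.0578), nor on TPM with a pseudocount of 1 (-0.12, adjusted p = 0.0550). After correction of each library for its trend over gene length, the change was -0.035 (adjusted p = 0.373), the highest p over all settings, the lowest being 0.0040. Fasn and Acaca have the greatest effective lengths of the 10 genes, 9790 and 8770 bases, and the value of Acaca under that setting was -0.053 (adjusted p = 0.305).

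The upstream window of Fasn is printed beside that of Me1 because none of the motifs searched lies in it. These were, beside the antioxidant core, the E-box CACGTG, the sterol regulatory element core TCACNCCAC, and AGGTCA repeated in the same direction with 1 base (the PPAR element) or 4 bases (the LXR element) between. Minus strand, chr11:120824538-120824797 of GRCm38.p6:
Fasn: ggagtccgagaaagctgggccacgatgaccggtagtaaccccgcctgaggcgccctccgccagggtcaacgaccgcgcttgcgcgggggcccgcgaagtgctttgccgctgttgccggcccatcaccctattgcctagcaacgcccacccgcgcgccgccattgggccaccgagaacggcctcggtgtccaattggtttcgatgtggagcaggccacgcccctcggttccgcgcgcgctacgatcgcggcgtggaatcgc
The E-box letters occurred in 7.15% of all windows, the sterol core in 1.24%, the PPAR repeat in 0.0396% and the LXR repeat in 0.0152%. None of the 13 windows held the sterol core or either repeat. Not all of these windows lie at the 5' end of their gene. The only window of Acaca starts at 84195188 of chromosome 11, inside a gene that starts at 84129635. The absence of exact letters from a window of 300 bases says nothing about the factors.

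Scd2 encodes a stearoyl-CoA desaturase, which puts the double bond into oleate. It had 149.6, 151, 149 and 138 CPM without serine and glycine, against 146, 146, 152 and 149 CPM in control. Replicate 4 of the serine/glycine-free group lay below the other 7 libraries, and the remaining libraries overlapped. For Scd2 the log2 change was -0.016 (SE 0.031, adjusted p = 0.730), with a 95% interval from -5.30% to 3.22%. Its estimated counts, 2408.11 to 2728.87 in a library, were not whole in all 8 libraries. That happens where reads are divided between loci, so its level carries some uncertainty. The paralog Scd1 was much lower, at 3.96 ± 0.273 CPM in serine/glycine-free and 3.12 ± 0.273 CPM in control libraries (SD, n = 4), also with counts that were not whole in 8 libraries. With 52.02 to 78.04 counts of Scd1 in a library, any reads shared with Scd2 weigh more on the level of Scd1. Scd1 rose (log2 change 0.35, adjusted p = 0.0362 by edgeR), but it missed the threshold when 1 of 5 libraries was dropped: serine/glycine-free replicate 2 (0.30, adjusted p = 0.102), 3 (0.35, 0.0625) or 4 (0.36, 0.0523), or control replicate 1 (0.31, 0.0863) or 2 (0.31, 0.0956). It also missed it with DESeq2 (adjusted p = 0.132), with no filter and on TPM.

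Elovl1 encodes an elongase of very-long-chain saturated and monounsaturated fatty acids, which enter sphingolipids. It had 188, 190.5, 191 and 189 CPM in the serine/glycine-free libraries, against 172, 171, 169 and 169 CPM in the control libraries. The groups were apart, with coefficients of variation of 0.800% and 0.955%, the lowest of the 10 genes in each group. Elovl1 rose, with a log2 change of 0.16 (SE 0.027, adjusted p = 1.2e-05), or by 11.4% with a 95% interval from 7.19% to 15.7%. Its 3' end shares 53 bases with Cdc20 on the other strand, which stood at 26.1 CPM in both groups (log2 change 0.0038, adjusted p = 0.969). After the length correction the change of Elovl1 was 0.11, the lowest of the settings tried, and the call held under all settings except a minimum of 1.2-fold.

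Of 25 tested genes of fatty acid synthesis, elongation and desaturation, 4 rose, 2 fell and 19 did not pass, and the median log2 change was 0.017. That is 24% called, below the 33.2% of all tested genes. Outside the genes above, Hsd17b12, the ketoacyl-CoA reductase of the elongation cycle, rose: it averaged 163 ± 5.34 CPM in serine/glycine-free and 145 ± 6.17 CPM in control libraries (SD, n = 4; log2 change 0.17, adjusted p = 3.3e-05 by edgeR). Hacd4, a dehydratase family member, fell (-0.17, adjusted p = 0.00072), with counts that were not whole in 8 libraries. The citrate carrier Slc25a1 stood at 0.044 (adjusted p = 0.406), the acetate enzyme Acss2 at 0.035 (adjusted p = 0.813), and Acacb, with 1.31 CPM in serine/glycine-free and 1.102 CPM in control libraries, at 0.25 (adjusted p = 0.473). Without serine/glycine-free replicate 3, 1 gene of the list fell rather than 2.

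Among 16 tested regulators of lipogenesis, 3 rose, 1 fell and 12 did not pass (median log2 change 0.040), which is 25% called and below the 33.2% of all tested genes. Nr1h3, which encodes the oxysterol receptor LXR alpha, had 74.7 to 80.4 CPM in serine/glycine-free and 49.6 to 50.7 CPM in control libraries (log2 change 0.62, adjusted p = 8.3e-18). Insig1, which holds SREBP precursors in the endoplasmic reticulum, rose by 0.21 (adjusted p = 4.3e-05). Its paralog Insig2 rose by 0.14 (adjusted p = 0.0272). That call of Insig2 did not survive the removal of serine/glycine-free replicate 3 (adjusted p = 0.105) or of control replicate 1 (0.0867) or 3 (0.0683). Insig2 also missed the threshold with DESeq2 (adjusted p = 0.0922), with no filter, after the length correction and on TPM. Srebf1, which encodes the lipogenic factor SREBP-1, stood at 0.093 (adjusted p = 0.0694). Srebf1 did pass once serine/glycine-free replicate 1 (0.11, adjusted p = 0.0366) or 3 (0.12, adjusted p = 0.0271) was dropped, with scaling to library size only (0.0468) and after the length correction (0.0343). Prkab2, a subunit of the kinase AMPK, fell by 0.20 (adjusted p = 0.0444). It missed the threshold when 1 of 6 libraries was dropped, serine/glycine-free replicates 1, 2 and 4 and control replicates 2, 3 and 4, with adjusted p between 0.0564 and 0.173 (changes between -0.21 and -0.15). Prkab2 also missed it with DESeq2 (adjusted p = 0.123), with scaling to library size only and on TPM. Without serine/glycine-free replicate 4, 5 genes of the list rose. Mlxipl, the carbohydrate-responsive factor, averaged 0.0567 and 0.0836 CPM in serine/glycine-free and control libraries, below the 0.165 to 0.171 CPM that 3 counts make in these libraries, and was not tested.

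Plin2 encodes perilipin 2, the coat protein of lipid droplets outside fat cells. It had 985, 1017, 993 and 1037 CPM without serine and glycine, against 679, 676, 686 and 692 CPM in control. The groups lay far apart and neither spread by more than 2.36% (coefficient of variation). Plin2 had a log2 change of 0.56 (SE 0.023, adjusted p = 1.9e-23), a 1.47-fold level with a 95% interval of 1.43 to 1.52. Of all tested genes, 95.8% changed by less in size. Under the other settings the change stayed between 0.51 and 0.57 and passed each time. Plin2 (Entrez 11520) lies on chromosome 4 at 86626910 to 86670217. A further row of the table carries the same symbol with Entrez 101055843, which RefSeq names Gm12551, a transcribed pseudogene at 86626857 to 86632221 on that chromosome. That row summed to 2 counts in serine/glycine-free and 2.64 counts in control libraries, and was not tested.

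The upstream window of Plin2 holds an E-box, in capitals, across its start site. Minus strand, chr4:86670050-86670309 of GRCm38.p6:
Plin2: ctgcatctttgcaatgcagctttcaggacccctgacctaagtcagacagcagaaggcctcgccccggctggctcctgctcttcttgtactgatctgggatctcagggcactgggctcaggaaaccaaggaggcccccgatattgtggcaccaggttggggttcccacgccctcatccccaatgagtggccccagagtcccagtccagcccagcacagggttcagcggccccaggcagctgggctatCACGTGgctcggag
It was the only match among the 13 windows for that motif, which 7.15% of all windows hold.

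Of 27 tested genes of triglyceride synthesis, lipid droplets and lipolysis, 10 rose, 4 fell and 13 did not pass, and the median log2 change was 0.058. The share called, 51.9%, stands beside 33.2% of all tested genes. Plin3, a further droplet coat gene, rose (95.8 ± 3.10 CPM in serine/glycine-free and 82.4 ± 0.570 CPM in control libraries, SD, n = 4; log2 change 0.22, adjusted p = 1.2e-06 by edgeR). Hilpda, an inhibitor of the lipase ATGL, had 7.55 to 9.32 CPM in serine/glycine-free and 5.40 to 6.84 CPM in control libraries (log2 change 0.46, adjusted p = 0.00024). Pnpla2, which encodes ATGL itself, rose by 0.11 (adjusted p = 0.0051), a call lost on TPM (adjusted p = 0.0624 with a pseudocount of 1).

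Soat1, which esterifies cholesterol, averaged 309.8 ± 4.98 CPM in serine/glycine-free and 259.7 ± 6.23 CPM in control libraries (SD, n = 4; log2 change 0.25, adjusted p = 8.7e-11 by edgeR). Nceh1, which hydrolyses the esters, averaged 295 ± 8.35 and 242 ± 3.12 CPM in the same order (0.29, adjusted p = 4.2e-12 by edgeR). Hsd17b11, a droplet protein, rose by 0.17 (adjusted p = 9.0e-05). Lipe, the hormone-sensitive lipase, fell, with 30.01 to 31.4 CPM in serine/glycine-free and 33.5 to 39.3 CPM in control libraries (log2 change -0.25, adjusted p = 7.5e-05). Mgll also fell (-0.45, adjusted p = 0.0264 by edgeR), with 26 to 61 counts in a library. So did Lpin1 (-0.16, adjusted p = 0.0110) and Agpat3 (-0.081, adjusted p = 0.0308). Agpat4 (0.33, adjusted p = 0.0022), Agpat5 (0.11, 0.0200) and Aup1 (0.085, 0.0202) were the other genes of the list that rose. The genes from Mgll to Aup1 were named after their values were seen. The triglyceride-forming enzymes Dgat1 (-0.15, adjusted p = 0.128) and Dgat2 (-0.30, adjusted p = 0.280) did not pass. Dgat1 passed, lower, after the length correction (-0.20, adjusted p = 0.0326) and on TPM (-0.18, adjusted p = 0.0399 with a pseudocount of 1). The number of genes of the list that fell was 2 without serine/glycine-free replicate 1, without control replicate 1 and without control replicate 2.

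Cd36 encodes a scavenger receptor that takes up long-chain fatty acids and oxidised lipoproteins. It had 1014, 983, 1012 and 955 CPM in the serine/glycine-free libraries, against 787, 811, 820.2 and 841 CPM in the control libraries. All serine/glycine-free libraries were above all control libraries. Cd36 had a log2 change of 0.28 (SE 0.024, adjusted p = 4.9e-13), a 1.22-fold level with a 95% interval of 1.18 to 1.26. Under the other settings it stayed between 0.25 and 0.30 and passed each time. The gene (Entrez 12491) lies on chromosome 5 at 17781690 to 17888959. The upstream window that RefSeq gives for Cd36 lies inside the span of the gene, at an internal start site and not at its 5' end. It is printed for comparison with that of Plin2 and holds none of the motifs searched. Minus strand, chr5:17835887-17836146 of GRCm38.p6:
Cd36: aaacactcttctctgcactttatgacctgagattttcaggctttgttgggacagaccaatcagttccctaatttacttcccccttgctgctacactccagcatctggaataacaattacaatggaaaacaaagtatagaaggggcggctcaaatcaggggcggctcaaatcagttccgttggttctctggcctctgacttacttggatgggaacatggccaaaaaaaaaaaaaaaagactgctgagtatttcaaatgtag

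Pparg had 6.47, 6.99, 6.29 and 8.17 CPM without serine and glycine, against 7.32, 7.28, 7.80 and 6.75 CPM in control. The ranges overlapped, and serine/glycine-free replicate 4 held the highest value of all 8. For Pparg the log2 change was -0.063 (SE 0.097, adjusted p = 0.664). With 113 to 143 counts per library, the 95% interval of the change ran from -16.4% to 9.59%. The annotation places the antisense gene Gm44079 over 13176 bases of Pparg, with no value of its own here. The 3 genes with the pattern nearest to Pparg were Ssbp4, Thop1 and AI837181, at distances of 0.12, 0.13 and 0.15. None of them passed the test, which follows from choosing them by their pattern in these same libraries.

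Of 22 tested genes of PPAR receptors, partners, targets and lipid uptake, 7 rose, 3 fell and 12 did not pass. The median log2 change was 0.088, and 45.5% were called, beside 33.2% of all tested genes. Plin2 and Cd36 are among the 7. Fabp4, a fatty acid carrier of macrophages and fat cells, had 40.9, 37.4, 40.2 and 39.0 CPM in serine/glycine-free and 19.5, 21.2, 20.4 and 18.9 CPM in control libraries. Its groups were apart, and its log2 change of 0.98 (SE 0.052, adjusted p = 1.3e-19) was the largest of the 6 lists. Fabp5, a related carrier, had 200.4, 182, 193 and 198 CPM in serine/glycine-free and 123, 127, 120.1 and 131 CPM in control libraries (log2 change 0.62, adjusted p = 1.3e-19), also without overlap. Lpl, the lipoprotein lipase, averaged 1891 ± 44.3 CPM in serine/glycine-free and 1645 ± 27.6 CPM in control libraries (SD, n = 4; log2 change 0.20, adjusted p = 4.8e-10 by edgeR). Slc27a1, a fatty acid transport protein, rose by 0.34 (adjusted p = 1.5e-08).

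The receptors themselves differed in level. Ppard, which encodes PPAR delta, averaged 22.4 ± 1.18 CPM in serine/glycine-free and 24.1 ± 1.05 CPM in control libraries (SD, n = 4; log2 change -0.11, adjusted p = 0.145 by edgeR). Ppara averaged 0.0276 and 0 CPM, under the 3-count level, and was not tested. Rxra, the retinoid X receptor partner, rose by 0.20 (adjusted p = 1.5e-05), with 80.1 to 86.9 CPM in serine/glycine-free and 68.9 to 73.2 CPM in control libraries. Genes of the list that fell included the coactivator Ppargc1b (-0.31, adjusted p = 0.0056) and the corepressor Ncor1 (-0.12, adjusted p = 0.0014), which was named after its value was seen and had counts that were not whole in 8 libraries. The call of Ppargc1b was lost on TPM (-0.12, adjusted p = 0.300 with a pseudocount of 1). Angptl4, a PPAR target that inhibits Lpl, stood at 0.30 (adjusted p = 0.0643) and passed once serine/glycine-free replicate 2 (0.35, adjusted p = 0.0456) or control replicate 1 (0.37, adjusted p = 0.0379) was dropped. Pdk4 averaged 0.0419 CPM in serine/glycine-free and 0.0276 CPM in control libraries and was not tested.

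Cpt1a encodes the outer-membrane carnitine palmitoyltransferase, which controls entry of fatty acids into mitochondria. It had 145, 146, 146 and 141 CPM in the serine/glycine-free libraries, against 133, 135, 146 and 138 CPM in the control libraries. Control replicate 3 lay among the serine/glycine-free values, and the other control libraries lay below them. For Cpt1a the log2 change was 0.067 (SE 0.031, adjusted p = 0.0877), with a 95% interval of the change from 0.368% to 9.36%. Cpt1a did pass when control replicate 3 was dropped (0.093, adjusted p = 0.0246), when serine/glycine-free replicate 4 was dropped (0.080, adjusted p = 0.0410) and after the length correction (0.072, adjusted p = 0.0358). Over all settings its adjusted p lay between 0.0246 and 0.521.

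Of 35 tested genes of fatty acid activation and oxidation, 4 rose, 3 fell and 28 did not pass, with a median log2 change of 0.021. The share called, 20%, lay below the 33.2% of all tested genes.  Acsl1, which activates fatty acids to acyl-CoA, averaged 70.4 ± 3.39 CPM in serine/glycine-free and 59.0 ± 3.03 CPM in control libraries (SD, n = 4; log2 change 0.26, adjusted p = 2.3e-06 by edgeR). Acox3, a peroxisomal oxidase, rose by 0.23 (adjusted p = 1.2e-06). The peroxisomal transporter Abcd2 rose by 0.30 (adjusted p = 0.0238), but not once serine/glycine-free replicate 3 was dropped (0.19, adjusted p = 0.187) or control replicate 1 (0.26, adjusted p = 0.0800). Nor did Abcd2 pass with DESeq2 (adjusted p = 0.0907) or on TPM. Slc25a20, the carnitine carrier, rose by 0.14 (adjusted p = 0.0409), but not once serine/glycine-free replicate 3 was dropped (0.090, adjusted p = 0.233), nor without control replicates 2 (adjusted p = 0.0677), 3 (0.134) or 4 (0.136). Slc25a20 also missed the threshold with DESeq2 (adjusted p = 0.112), with limma-voom (0.0580), after the length correction and on TPM. Without serine/glycine-free replicate 3, 2 genes of the list rose.

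Acsl5, another activating enzyme, fell by 0.16 on the log2 scale (adjusted p = 3.1e-06). Hadha, a subunit of the mitochondrial trifunctional protein that was named after its value was seen, fell by 0.078 (adjusted p = 0.0444). Acadm, the medium-chain dehydrogenase, stood at 0.026 (adjusted p = 0.673). Cpt2, the inner-membrane partner of Cpt1a, stood at 0.11 and did not pass (adjusted p = 0.115). Its groups did not overlap in CPM, as for 30.6% of all tested genes, but they overlapped in TPM.

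**Figure D2:**
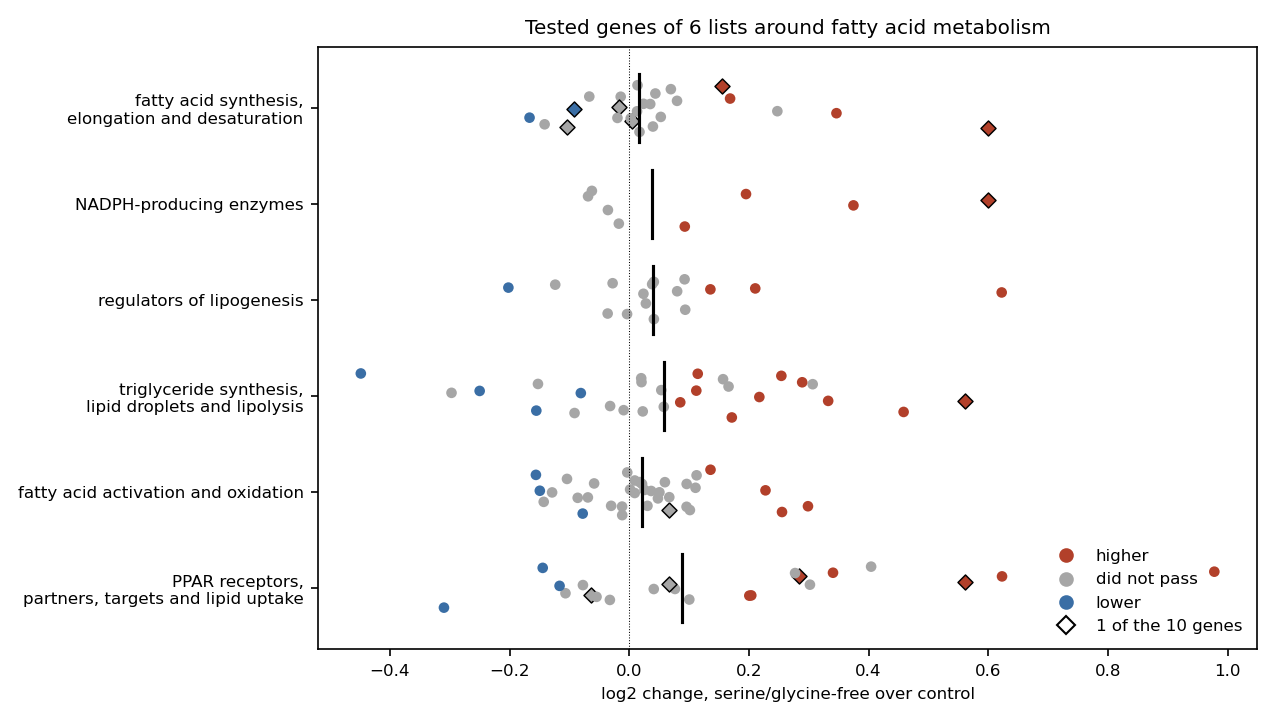
Log2 change, serine/glycine-free over control, of every tested gene of the 6 lists (rows); each point is 1 gene, coloured by its call, diamonds are the 10 genes, and black bars are list medians. Medians lie between 0.017 and 0.088, and the rightmost points of the PPAR and uptake list are Fabp4, Fabp5 and Plin2.

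The lists were chosen with earlier results of these data known and share members: Plin2 and Cpt1a stand in a pair of lists each, as does Me1.

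Among the 10 genes, the range of changes was wide, as the plot of changes with their intervals shows. Of all tested genes, 96.6% changed by less in size than Me1 and 3.38% by less than Acly. Cd36 (85.4%) and Elovl1 (66.9%) lay between.

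**Figure D3:**
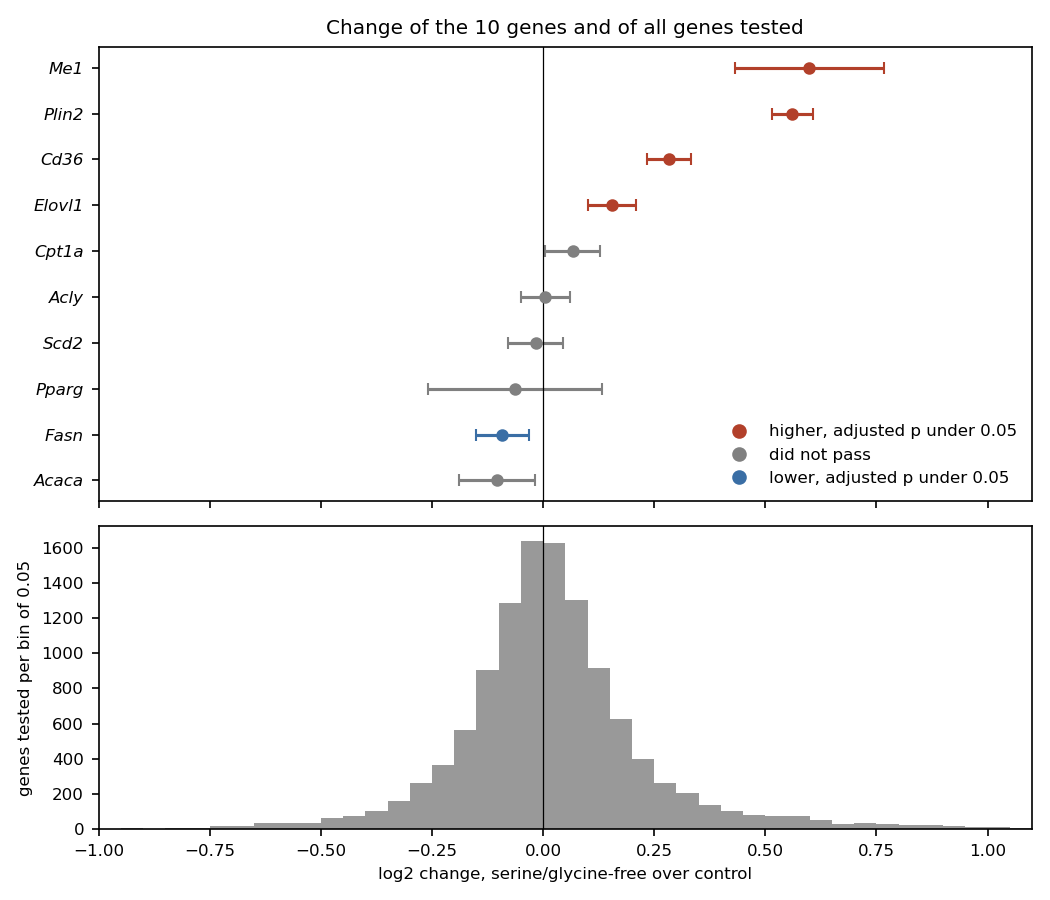
Upper panel, log2 change, serine/glycine-free over control, of the 10 genes with 95% intervals from the edgeR fit; lower panel, the number of tested genes per bin of log2 change on the same axis. Me1 (0.60) and Plin2 (0.56) lie in the right tail, and Acly (0.0053) lies at the centre.

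Levels between genes were compared per length, on the deposited TPM (transcript abundance per length). Plin2 was highest, at 1050.1 ± 25.2 TPM in serine/glycine-free and 726 ± 9.15 TPM in control libraries (SD, n = 4), and 167 rows of the table had a higher mean. Cd36 followed with 638 ± 26.3 and 538 ± 15.96 TPM, and Elovl1 with 200.5 ± 4.83 and 184 ± 1.146 TPM in the same order. Acly (77.4 and 78.8 TPM), Cpt1a (62.4 and 60.8 TPM), Scd2 (49.2 and 50.8 TPM), Fasn (27.7 and 30.1 TPM) and Acaca (10.2 and 11.2 TPM) came next. Pparg, at 6.57 ± 0.717 TPM in serine/glycine-free and 7.26 ± 0.512 TPM in control libraries, and Me1, at 7.06 ± 0.304 and 4.79 ± 0.516 TPM, were lowest. In that order neighbours did not overlap in either group, except that Pparg and Me1 overlapped without serine and glycine. The 4 genes whose groups were apart in CPM were also apart in TPM.

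**Figure D4:**
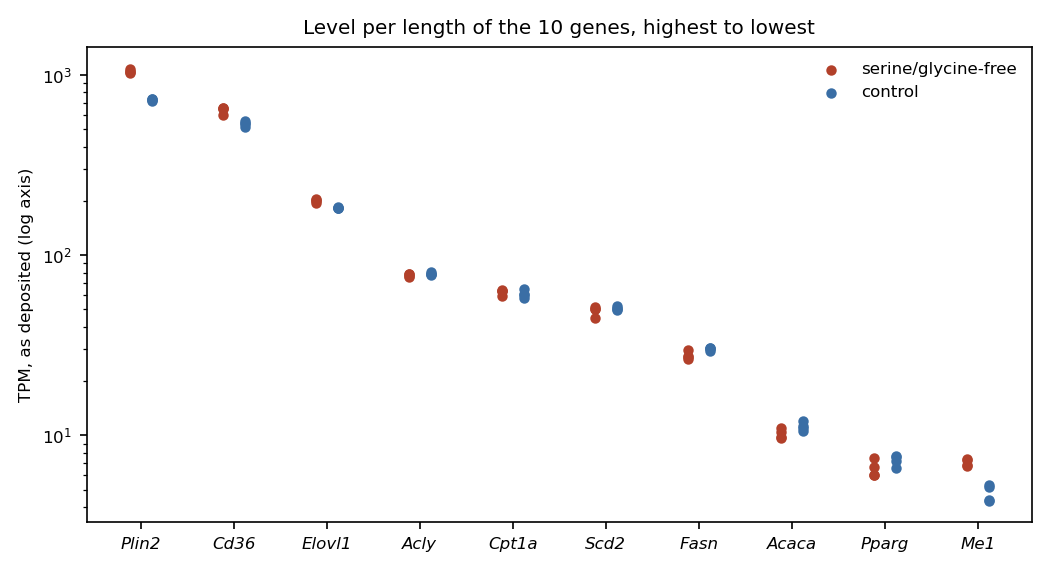
Deposited TPM (vertical axis, log scale) of the 10 genes, ordered by mean; each point is 1 library, serine/glycine-free to the left of control. Means span from 4.79 TPM for Me1 in control to 1050.1 TPM for Plin2 without serine and glycine. The means of Me1 and Pparg change places between the groups, but their points overlap without serine and glycine.

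**Figure D5:**
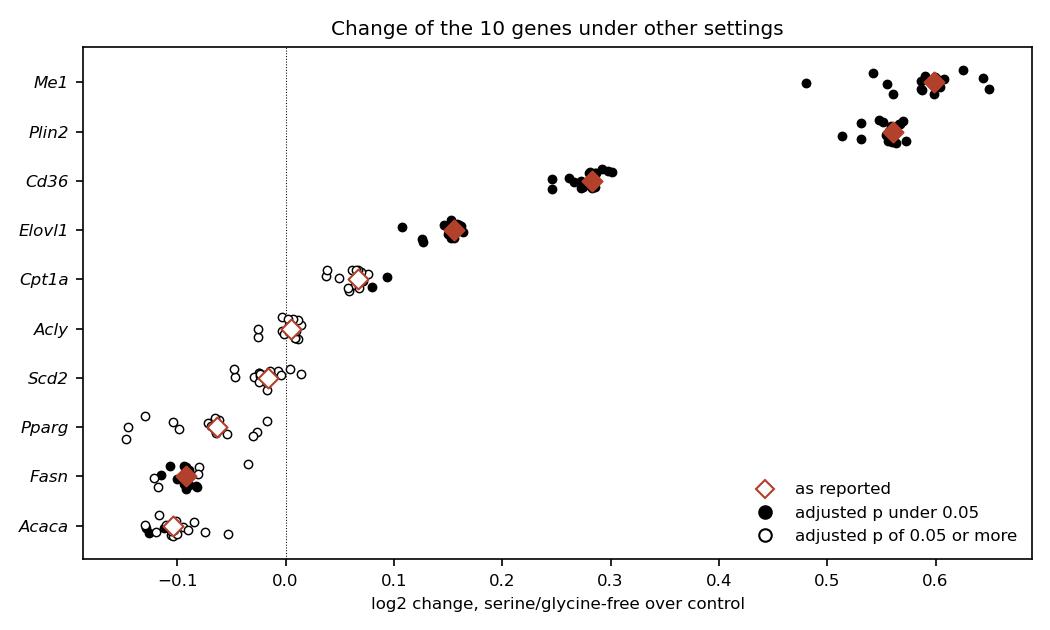
Log2 change, serine/glycine-free over control, of the 10 genes under the reported fit (diamonds) and 18 other settings (circles); filled symbols have an adjusted p under 0.05. Me1, Plin2, Cd36 and Elovl1 stay filled throughout, Fasn, Acaca and Cpt1a change between filled and open, and Acly, Scd2 and Pparg are unfilled throughout.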

How the data were processed

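The material was RNA of mouse bone marrow-derived macrophages, 4 serine/glycine-free and 4 control libraries. Per the labels' protocols it was isolated with Trizol, and polyadenylated RNA was selected with oligo-dT beads. The submitters' processing notes list BWA, Bowtie2, RSEM and GRCm38.p6, with no versions, and the strandedness of the counting was not stated there. For each gene the authors deposited estimated counts, FPKM and TPM. Deposited estimated counts, 8.06% to 8.47% of them fractional in a library (tolerance 1e-06), were rounded and tested. The authors' FPKM served only to derive effective lengths. Deposited TPM served for levels between genes and for another test. The 6 columns of averages were not used.

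Low genes were removed with filterByExpr (minimum count 10, total 15). Counts were scaled by TMM and tested with edgeR 4.0.16 (R 4.3.3), quasi-likelihood F test, with Benjamini-Hochberg adjustment over all 11700 genes and a threshold of 0.05. Adjusted p-values in the text come from that fit unless another setting is named. Intervals are at 95%. The 12 within-group pairs of libraries exceeded counting noise, at a chi-square per degree of freedom of 1.42 to 3.59.

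The 10 genes, the 6 lists and the tests were chosen with earlier results of these data known. Genes named were the 10, the 6 called genes of lowest adjusted p in a list (fewer where fewer passed), and a set given by name; some of these genes are not reported here. The other settings were RLE factors, scaling to library size only, all genes with a count, a minimum mean of 5 CPM, a replicate block, dropping each library, DESeq2 1.42.0, limma-voom (limma 3.58.1), limma on log2(TPM + 1) or log2(TPM + 0.1), an adjusted p under 0.01, a change of 1.2-fold or more, and a loess correction of each library for gene length. Only the edgeR fit and the length correction were tried on simulated counts, which were drawn with the dispersions that edgeR had fitted. Promoter sequences are RefSeq's for GRCm38.p6, found for 9 of the 10 genes.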

Additional observations from a re-analysis of the deposited data

Results flagged for a closer look

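Within a group of 4 libraries, 1 library stood far from the other 3 for 2 of the 10 genes, and it was the same library, serine/glycine-free replicate 4. For Scd2 it had 138 CPM where the other 3 had 149 to 151 CPM, a gap of 0.860 of the group's whole range. For Cpt1a it had 141 CPM where the other 3 had 145 to 146 CPM, a gap of 0.842 of the range. Both exceed Dixon's 95% critical value for 4 libraries, and chance flags about 1 in 20 groups, of which 20 were examined here. Over the genes of the table with enough counts, this library also differed most from its group. Its pairs with the other 3 had a chi-square per degree of freedom of 2.90 to 3.59. The other pairs of that group had 1.42 to 2.03. Without that library Cpt1a passed the test (0.080, adjusted p = 0.0410), while Scd2 stood at 0.014 (adjusted p = 0.773) and did not pass. Why this library differs was not tested.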

How the results depend on the processing

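The rises of Me1, Plin2, Cd36 and Elovl1 kept direction and call under all 18 settings at the same threshold, and Elovl1 (0.16) missed only the minimum of 1.2-fold. Of 29 other named genes that passed, 21 did so under all 18; 8 lost the call under at least 1, and 3 of 11 that had not passed did so under at least 1. No called change reversed. Acly, which passed nowhere, changed sign under 5 of the 20 alternatives (range -0.025 to 0.014).

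Fasn lost its call with the length trend removed (-0.035, adjusted p = 0.373), on log2(TPM + 1) (-0.12, adjusted p = 0.0550) and log2(TPM + 0.1) (-0.12, adjusted p = 0.0531), and at an adjusted p under 0.01 or 1.2-fold (-0.092); leaving out a library gave -0.11 to -0.080. Acaca passed with no filter (-0.11), with -0.13 to -0.074 over left-out libraries. Cpt1a passed with the length trend removed (0.072), with 0.049 to 0.093 over left-out libraries. The cause of these differences was not tested. Of the 10 genes, 2 fell with no filter and 0 with the length trend removed, on either TPM scale, at 0.01 or at 1.2-fold, and 0 to 2 fell when a library was left out.

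In the synthesis list, 2 rose at 1.2-fold; 1 fell on either TPM scale or at 0.01 and 0 at 1.2-fold, with 1 to 3 over left-out libraries. Of the NADPH genes, 2 rose at 1.2-fold and 1 fell with the length trend removed. Of the regulators, 5 rose with the length trend removed, 1 at 1.2-fold and 2 to 5 over left-out libraries; 0 fell with library size alone, DESeq2, either TPM scale, 0.01 or 1.2-fold, and 0 to 1 over left-out libraries. In the storage list, 4 rose at 1.2-fold; 2 fell with DESeq2, 1 at 0.01 or 1.2-fold, and 2 to 4 over left-out libraries. In the oxidation list, 2 rose with DESeq2, either TPM scale or 0.01, 1 at 1.2-fold and 2 to 5 over left-out libraries; 5 fell with the length trend removed and 0 at 1.2-fold. In the PPAR list, 1 fell at 1.2-fold. Over all genes, 816 rose and 584 fell at 1.2-fold, against 1855 and 2027.

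Same-numbered libraries of the groups did not deviate together (correlations -0.0943 to 0.0609 over 4 pairs, and 2 of 8 libraries correlated best with their own number). These correlations cannot exclude that same-numbered libraries share an animal or culture, which the labels do not say. With the replicate number as a block, 1771 genes rose and 1884 fell, and 4 of the 10 genes rose and 1 fell. Pparg and Me1 had the fewest counts of the 10 genes; the effect of depth was not tested.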
